A study of Mus musculus with 56 samples.

Results

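The liver was studied over the first 4 h without food in mice fed only by day. The comparison sets 4 liver libraries from zeitgeber time 16 (ZT16, 16 h after lights on) against 4 from ZT12, both under daytime-restricted feeding (DRF). These are 8 of the 56 liver RNA-sequencing libraries of the series. All animals were female C57BL/6J mice, 9 weeks old, kept under 12 h of light per day and held on their feeding regimen for 7 days. Under DRF, food was present in the light phase, so that ZT12 closed the meal and ZT16 lay 4 h into both the fast and the dark phase. For comparison, 2 pairs of groups with 4 libraries each were taken from the nighttime-restricted feeding (NRF) mice, the study's control regimen. The pair NRF ZT0 and NRF ZT4 spans the first 4 h without food in the light, and the pair NRF ZT12 and NRF ZT16 spans the same clock hours as the DRF pair but with food given. The labels do not say that the 4 libraries of a group came from separate animals, so p-values measure only a spread between libraries. That spread was estimated over all 14 groups of the series and not from the compared libraries alone. Fasting and darkness began together under DRF and cannot be told apart within the DRF pair.

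When a meal ends, insulin falls and glucagon rises. The liver then stops storing sugar as glycogen and fat and begins to release glucose, first from glycogen and then by gluconeogenesis from lactate, glycerol and amino acids. FOXO transcription factors, which insulin signalling through AKT holds out of the nucleus, and the cAMP pathway downstream of glucagon are known to drive the gluconeogenic genes, whereas SREBP-1c, encoded by Srebf1, drives fatty acid synthesis after a meal. The liver also holds a circadian clock, in which BMAL1 (Arntl) and CLOCK activate the Per, Cry and Nr1d genes and the products of these genes repress them in turn.

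Each gene's value here is a scaled count: a count rebuilt from the deposited number, then divided by 1 factor per library. They compare a gene between libraries and not 1 gene with another, because they carry no correction for gene length. In the 8 libraries 1 scaled count stood for between 377 and 613 recovered counts. The recovered total of each library lay far above the number of reads that the study states, so 1 recovered count is not taken as 1 read, and these values do not give the depth in reads. Replicates of 1 group correlated at between 0.984 and 0.990 across 13747 genes. All 9 tested hepatocyte markers were found in each of the 8 libraries, among them Ttr, Cyp2e1 and Hnf4a, and limma called 0 of them different, with 1 at an unadjusted p under 0.05, a level that 15.8% of all genes tested reached. Summed hepatocyte markers lay between 36500 and 41200 at ZT12 and between 45000 and 53500 at ZT16, without overlap, and most of that sum was Cps1, whose mean was 19790 and 29630, values too high for their recovery to be judged. In such mixed tissue, fewer cells of a type and less RNA per cell cannot be told apart. Of the other cell types, 0 of 11 Kupffer cell, 0 of 10 stellate cell, 0 of 6 cholangiocyte, 0 of 8 lymphocyte, 0 of 4 neutrophil, 0 of 5 red cell, 0 of 2 pancreas and 0 of 1 adipose markers were called by limma, with 6 of these 47 at an unadjusted p under 0.05. Those 6 were 3 stellate cell markers, 2 red cell markers and 1 neutrophil marker. All 5 red cell markers had a log2 difference below 0. The exception was the sinusoidal endothelium, where 1 of 10 was called: Lyve1, a hyaluronan receptor, lay at 6.44, 7.04, 5.79 and 8.51 at ZT12 and at 13.3, 14.04, 7.97 and 9.41 at ZT16, groups that overlapped, with a log2 difference of 0.59 ± 0.17 (SE, limma adjusted p = 0.0372). The call of Lyve1 was lost without any 1 of the 8 libraries but DRF ZT12 replicate 4, DRF ZT16 replicate 3 and DRF ZT16 replicate 4 (adjusted p from 0.0683 to 0.169), on the deposited values (adjusted p = 0.0586) and with only the 8 libraries fitted (adjusted p = 0.137). Of the 10 endothelial markers, 4 were at an unadjusted limma p under 0.05, against 15.8% of all genes. In 9 of the 10 the log2 difference lay above 0 (median 0.12). Summed endothelial markers lay between 546 and 625 at ZT12 and between 613 and 671 at ZT16, and their part in the results was not tested.

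Within the first 4 h of the fast, genes of glucose output such as Pck1 and G6pc, of amino acid breakdown such as Tdo2 and Sds, and of insulin signalling such as Irs2 and Foxo3 rose. The lipogenic regulator Srebf1, the heme synthesis gene Alas1, the helicase genes Mcm5 and Mcm6 and the ribosome assembly genes Nop56 and Nop58 fell. In all, 1157 of 25398 genes tested were called different, which means a Benjamini-Hochberg adjusted p under 0.05 in limma. Of these, 659 genes were higher at ZT16, which is 2.59% of all tested, and 498 were lower, which is 1.96%. Changes were moderate in size: the median log2 difference was 0.42 among the genes called higher and -0.41 among those called lower, and 51 and 19 of them reached 1 on that scale. The median over all genes was close to 0, at -0.00028. Log2 differences are of log2(scaled count + 1), so they understate the change of genes with low values. On the deposited values without recovery of counts, 325 genes were called higher and 370 lower, so the larger number of higher calls rests on the scale used. The count of 1157 fell to 714 without DRF ZT12 replicate 4 and to 726 without DRF ZT16 replicate 1, with 673 and 693 of the 1157 called again. Of 90 genes named for this change, 32 missed the threshold on the deposited values and 33 when only the 2 compared groups were fitted, and each is given beside its values.

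The 12 largest increases with separated groups were led by Rgs16, which encodes a protein that speeds up GTP hydrolysis by G proteins. Rgs16 (chr1:153740349-153745468, plus strand, GRCm38) lay at 0.719, 0.334, 0.454 and 0.732 scaled counts in the ZT12 libraries and at 9.45, 11.9, 15.2 and 13.7 in the ZT16 libraries. Every ZT16 library was far above every ZT12 library, although 10.1% of its exons lie opposite another gene, and the mean was 22.4 times higher (log2 difference 3.11 ± 0.48 SE, limma adjusted p = 3.61e-05). Nr1d1 (chr11:98767932-98775333, minus strand), the clock repressor REV-ERBα, followed with 3.79, 3.13, 6.22 and 3.39 at ZT12 and 11.8, 19.7, 28.1 and 27.9 at ZT16. Replicate 1 was the lowest at ZT16 and still stood above the whole ZT12 group (log2 difference 2.12 ± 0.31 SE, limma adjusted p = 1.74e-05). The noncoding transcript Gm43305 rose from 1.88, 0.917, 1.34 and 1.47 to 23.7, 15.3, 3.04 and 3.84, with a wide spread at ZT16 (1.99 ± 0.51 SE, limma adjusted p = 0.0146). This last call was lost without DRF ZT16 replicate 1 (adjusted p = 0.116) or without DRF ZT16 replicate 2 (adjusted p = 0.0734). Gm43305 missed the threshold on the deposited values (adjusted p = 0.0952) and with only the compared groups fitted (adjusted p = 0.119).

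Several of the leading increases belong to the insulin and lipid axis. Angptl4, a secreted inhibitor of lipoprotein lipase that is known to respond to fasting, rose from 4.16, 2.17, 4.301 and 3.87 to 19.3, 16.8, 9.12 and 13.6 (1.75 ± 0.32 SE, limma adjusted p = 0.000445). Trib3, a pseudokinase that binds AKT, rose from 0.733, 0.944, 1.64 and 1.23 to 4.73, 4.84, 8.52 and 5.69 (1.69 ± 0.27 SE, limma adjusted p = 4.85e-05). Irs2, the insulin receptor substrate that FOXO proteins are known to induce, lay at 14.1, 13.6, 28.1 and 36.6 at ZT12 and rose to 56.7, 62.8, 60.5 and 67.2 (1.5 ± 0.28 SE, limma adjusted p = 0.000529). All 3 genes had separated groups, and Irs2 varied mainly at ZT12, where replicates 3 and 4 were above replicates 1 and 2. The others of the 12 were Klf11, a Krüppel-like transcription factor (1.72 on the log2 scale), Depp1, a known FOXO target (1.70), Csad, which makes the precursor of taurine (1.56), Pck1 (1.53), Tbc1d30, a Rab GTPase activator (1.53), and Fbxo32, a ubiquitin ligase subunit also known as atrogin-1 (1.52). Their limma adjusted p-values ran from 3.68e-07 for Tbc1d30 to 0.0292 for Depp1, and the call of Depp1 was lost without any 1 of the 8 libraries but DRF ZT12 replicate 1 and DRF ZT12 replicate 3 (adjusted p from 0.0501 to 0.158). Depp1 missed the threshold on the deposited values (adjusted p = 0.112).

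The largest decrease was in Alas1 (chr9:106233455-106248654, minus strand), which encodes the rate-limiting enzyme of heme synthesis. It fell from 123, 181, 95.1 and 211 at ZT12 to 46.4, 30.8, 18.1 and 24.7 at ZT16, a mean 5.08 times lower (-2.32 ± 0.37 SE, limma adjusted p = 5.03e-05). Aacs, acetoacetyl-CoA synthetase, which feeds acetoacetate into lipid synthesis, fell from 320.5, 263, 222 and 233 to 54.8, 55.6, 49.4 and 50.5 (-2.27 ± 0.38 SE, limma adjusted p = 9.17e-05). The ZT16 values of Aacs lay within a narrow band far below the ZT12 values. Tsku, which encodes a secreted liver protein, fell from 62.6, 86.2, 128 and 97.5 to 35.9, 15.2, 16.9 and 12.2 (-2.24 ± 0.44 SE, limma adjusted p = 0.00103). The others of the 12 were Nrep (-1.57), Angptl8, a meal-induced regulator of lipoprotein lipase (-1.56), the nuclear receptor gene Ppard (-1.48), Inhba, which encodes a subunit of activin A (-1.48), the replicative helicase genes Mcm6 (-1.34) and Mcm5 (-1.17), Ccnd1, cyclin D1 (-1.31), the adhesion receptor gene Adgrf1 (-1.28) and Alg2, a mannosyltransferase of N-glycan assembly (-1.16), with limma adjusted p-values from 1.13e-07 for Ppard to 0.00959 for Mcm5. The call of Mcm5 was lost without DRF ZT12 replicate 4 (adjusted p = 0.0617), and 23.4% of the exons of Ccnd1 lie opposite an antisense gene. Mcm5 missed the threshold with only the compared groups fitted (adjusted p = 0.0757).

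**Figure D1:**
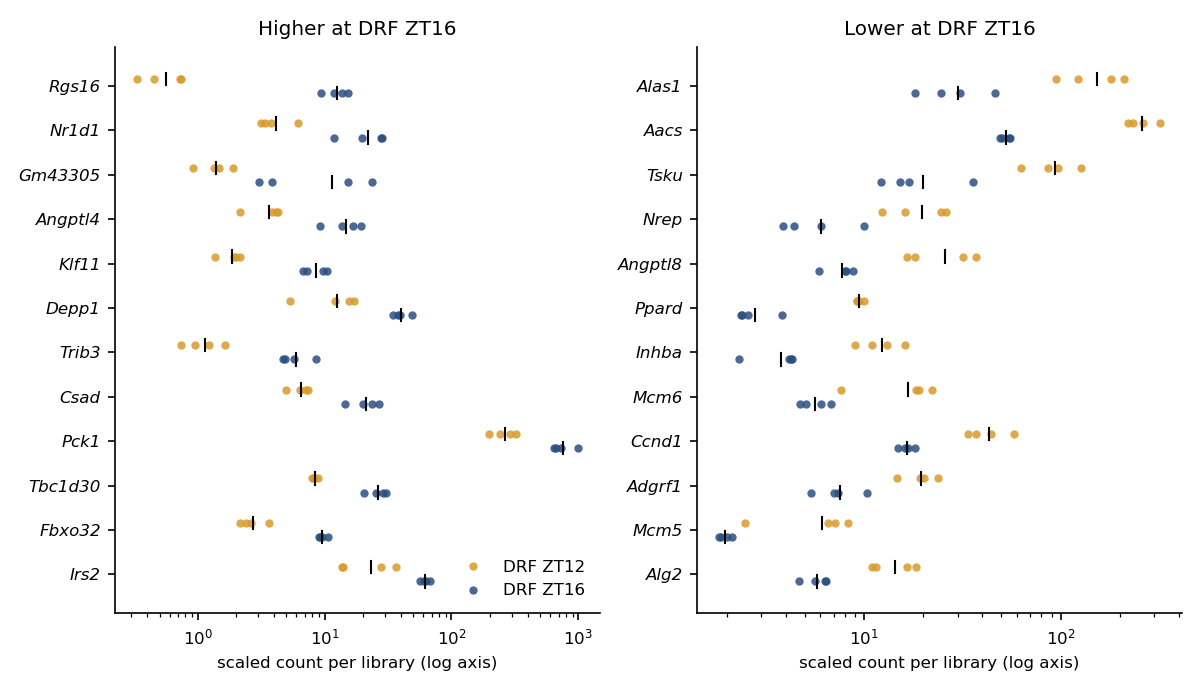
Scaled counts of the 12 genes with the largest increase (left) and the 12 with the largest decrease (right) in each of the 4 DRF ZT12 and 4 DRF ZT16 libraries, on a log axis, with the group mean as a black bar. In every gene the ZT12 and ZT16 points do not overlap, which the choice of the genes required, and Rgs16 stands out with a mean of 0.5599 at ZT12 and 12.6 at ZT16.

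Promoter sequence was examined for the genes that moved together. RefSeq promoters on GRCm38.p6, from 250 bases before to 50 after a start site, were matched by symbol for 425 of the 659 genes called higher and 374 of the 498 called lower. Both strands were searched for 10 motifs, and capitals mark each match in the sequences shown. The E-box CACGTG, bound by BMAL1-CLOCK and other factors, was found in 15.1% of the higher and 14.4% of the lower genes, against 10.7% of the 13060 tested genes with a promoter and 7.15% of all 32851 promoters. The FOXO site TGTTTAC was found in 5.88% of the higher and 3.48% of the lower genes (3.43% of tested genes, 3.65% of all promoters). The cAMP response element TGACGTCA was found in 3.29% and 4.55% (3.08% and 1.79%), and the ROR and REV-ERB core TAGGTCA in 3.06% and 2.14% (2.64% and 2.61%). No p-value is attached to these shares, and a match is not a bound site. For the other 6 motifs the shares of higher genes, lower genes, tested genes and all promoters follow in that order. The DR1 core GGTCANAGG, bound by PPAR-alpha and HNF4A, was found in 3.29%, 2.14%, 1.97% and 1.72%. The glucocorticoid core ACANNNTGT was found in 6.82%, 3.48%, 5.93% and 6.85%, and the heat shock core TTCNNGAA in 8.24%, 6.95%, 8.72% and 8.52%. The D-box TTATGTAA was found in 1.18%, 0.535%, 0.858% and 0.938%, the sterol element TCACCCCAC in 1.18%, 0.802%, 0.766% and 0.551% and the amino acid response element TGATGCAAT in 0%, 0.267%, 0.153% and 0.192%. The DR1 core can overlap the ROR core at the bases GGTCA.

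Promoters of 6 named genes with a match are shown, 4 that rose (Irs2 and Klf11 with an E-box, Klf9 with a FOXO site, G6pc with a ROR core) and 2 that fell (Aacs with a FOXO site, Mcm5 with a cAMP response element). The match begins at -44 in Irs2, -214 in Klf11, -100 in Klf9, -54 in G6pc, -237 in Aacs and -99 in Mcm5, counted in bases from the annotated start site. Each runs 5′ to 3′ on the strand of its gene, so that GTAAACA and TGACCTA are the FOXO site and the ROR core read on the other strand.
Irs2, chr8:11008880-11009179, minus strand: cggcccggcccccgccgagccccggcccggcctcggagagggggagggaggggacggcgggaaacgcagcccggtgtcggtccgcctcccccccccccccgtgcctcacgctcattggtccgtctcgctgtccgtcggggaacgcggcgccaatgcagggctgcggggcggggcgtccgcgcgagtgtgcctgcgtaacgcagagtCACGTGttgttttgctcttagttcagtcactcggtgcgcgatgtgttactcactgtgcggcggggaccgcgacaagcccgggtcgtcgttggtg
Klf11, chr12:24651121-24651420, plus strand: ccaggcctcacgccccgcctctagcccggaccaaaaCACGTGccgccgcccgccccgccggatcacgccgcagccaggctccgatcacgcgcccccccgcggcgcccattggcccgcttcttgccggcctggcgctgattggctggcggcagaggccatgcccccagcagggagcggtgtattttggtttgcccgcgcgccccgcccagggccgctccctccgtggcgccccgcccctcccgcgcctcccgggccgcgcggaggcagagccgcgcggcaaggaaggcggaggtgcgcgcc
Klf9, chr19:23140976-23141275, plus strand: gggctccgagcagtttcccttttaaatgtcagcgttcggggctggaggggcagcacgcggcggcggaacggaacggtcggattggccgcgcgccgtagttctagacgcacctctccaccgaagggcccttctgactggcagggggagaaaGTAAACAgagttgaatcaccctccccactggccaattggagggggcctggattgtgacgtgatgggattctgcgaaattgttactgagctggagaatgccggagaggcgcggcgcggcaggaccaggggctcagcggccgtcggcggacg
G6pc, chr11:101367466-101367765, plus strand: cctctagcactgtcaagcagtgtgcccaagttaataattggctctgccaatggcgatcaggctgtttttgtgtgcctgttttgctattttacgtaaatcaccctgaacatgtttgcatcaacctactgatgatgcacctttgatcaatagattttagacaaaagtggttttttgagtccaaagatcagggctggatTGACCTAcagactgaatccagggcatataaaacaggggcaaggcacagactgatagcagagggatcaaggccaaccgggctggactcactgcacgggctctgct
Aacs, chr5:125475623-125475922, plus strand: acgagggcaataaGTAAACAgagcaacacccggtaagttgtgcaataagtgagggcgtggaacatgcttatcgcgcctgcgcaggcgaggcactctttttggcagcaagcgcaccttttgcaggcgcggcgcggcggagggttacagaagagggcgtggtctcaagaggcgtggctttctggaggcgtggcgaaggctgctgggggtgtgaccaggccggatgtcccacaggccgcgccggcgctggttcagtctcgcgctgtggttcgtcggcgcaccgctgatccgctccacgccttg
Mcm5, chr8:75109259-75109558, plus strand: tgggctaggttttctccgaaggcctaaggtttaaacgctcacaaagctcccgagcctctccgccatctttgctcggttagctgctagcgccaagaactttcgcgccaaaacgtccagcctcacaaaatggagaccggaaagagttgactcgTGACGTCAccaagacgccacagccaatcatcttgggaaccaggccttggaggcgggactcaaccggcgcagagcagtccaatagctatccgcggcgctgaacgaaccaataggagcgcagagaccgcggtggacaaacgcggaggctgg

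Gluconeogenic genes rose in 4 of 11 members tested and fell in 0, with a median log2 difference of 0.36 and 10 of 11 above 0. Over all genes tested, 2.59% were called higher and 1.96% lower. Pck1 (chr2:173153048-173159273, plus strand), phosphoenolpyruvate carboxykinase, the first committed step from oxaloacetate, lay at 196, 325, 242 and 287 at ZT12 and at 992, 647, 665 and 730.1 at ZT16, with the mean 2.89 times higher (1.53 ± 0.36 SE, limma adjusted p = 0.00637). G6pc (chr11:101367561-101377903, plus strand), the glucose-6-phosphatase that releases free glucose, rose from 99.1, 97.8, 189 and 184 to 261, 256, 343 and 364 (1.15 ± 0.34 SE, limma adjusted p = 0.0401). At ZT12 the values of G6pc fell into a lower and a higher pair, and each ZT16 library was above both. Its promoter is the one shown with a ROR core. Got1, the cytosolic aspartate aminotransferase, rose from 179, 138, 152 and 159.6 to 452, 363, 277 and 362 (1.19 ± 0.22 SE, limma adjusted p = 0.000444), and Ppargc1a, the coactivator PGC-1α, from 40.1, 43.9, 32.9 and 29.8 to 67.4, 58.2, 46.1 and 56.4 (0.63 ± 0.15 SE, limma adjusted p = 0.00888). The groups were separated in all 4 genes. Separation is given here and elsewhere as a description, because called genes are likely to show it. Its share over all genes is not given. The call of G6pc was lost without any 1 of the 8 libraries but DRF ZT12 replicate 3 and DRF ZT12 replicate 4 (adjusted p from 0.0551 to 0.142), and that of Ppargc1a without DRF ZT16 replicate 1 (adjusted p = 0.057) or without DRF ZT12 replicate 4 (adjusted p = 0.0617). G6pc missed the threshold on the deposited values (adjusted p = 0.0916), and G6pc and Ppargc1a with only the compared groups fitted (adjusted p = 0.0621 and 0.0688).

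In the insulin receptor and FOXO list, 5 of 14 members were called higher and 1 lower (median 0.25), against 2.59% and 1.96% of all genes. Besides Trib3 and Irs2, Foxo3, a FOXO factor itself, rose from 78.6, 80.9, 78.2 and 73.6 to 133, 108, 102 and 104 (0.51 ± 0.10 SE, limma adjusted p = 0.00142). Insr, the insulin receptor (0.32), and Sesn1, a stress-induced inhibitor of mTORC1 signalling (0.46), were the other members called higher. The call of Insr was lost without DRF ZT12 replicate 2 (adjusted p = 0.0902). Pik3r1, the regulatory subunit of phosphoinositide 3-kinase, was the member that fell, from 121, 133, 116 and 130.3 to 94.2, 81.4, 76.3 and 81.9 (-0.58 ± 0.15 SE, limma adjusted p = 0.0124). Igfbp1, a secreted binding protein that insulin represses, lay at 10.9, 7.47, 22.8 and 7.87 at ZT12 and 36.3, 30.1, 37.8 and 40.6 at ZT16 without overlap, but its difference of 1.61 did not pass (limma adjusted p = 0.145). Insr and Sesn1 missed the threshold on the deposited values (adjusted p = 0.422 and 0.057).

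Genes of glucose storage and use were counted beside all genes tested, of which 4.56% were called in either direction. In the glycogen list 1 of 9 fell and 0 rose (median -0.049). The member called was Ppp1r3b, the liver subunit that targets protein phosphatase 1 to glycogen, with 168, 145, 146 and 129 at ZT12 and 104, 63.8, 74.3 and 60.3 at ZT16 (-0.98 ± 0.24 SE, limma adjusted p = 0.0093). Among 12 genes of glucose uptake, glycolysis and ChREBP, limma called 0 in either direction (median 0.11). Of these, 3 were at an unadjusted p under 0.05, against 15.8% of all genes. Ppp1r3b missed the threshold on the deposited values (adjusted p = 0.0838).

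Of 20 genes of amino acid breakdown and the urea cycle, 6 rose and 0 fell, against 2.59% and 1.96% of all genes tested. The median log2 difference was 0.40, and 19 of 20 lay above 0. Sds, serine dehydratase, rose from 86.04, 75.9, 86.97 and 69.2 to 189, 163, 129.5 and 149 (0.97 ± 0.21 SE, limma adjusted p = 0.00334), although 29.6% of its exons lie opposite another gene. Tdo2, which opens the tryptophan ring, rose from 787, 608, 789 and 676 to 1675, 1371, 1200 and 1353 (0.97 ± 0.15 SE, limma adjusted p = 4.53e-05). Every ZT16 library exceeded every ZT12 library in both genes. The urea cycle enzymes Ass1 (0.74), Asl (0.72) and Arg1 (0.65) and the alanine aminotransferase Gpt2 (0.62) were the other members called higher. Asl lay at 419, 331, 376 and 309 at ZT12 and at 720, 584, 516 and 547 at ZT16, without overlap (0.72 ± 0.16 SE, limma adjusted p = 0.00334). The values of Ass1 were too high for the recovery to be judged, so the size of its change is uncertain, and its call was lost without any 1 of the 8 libraries but DRF ZT12 replicate 1, DRF ZT12 replicate 3 and DRF ZT16 replicate 2 (adjusted p from 0.0527 to 0.119), while that of Gpt2 was lost without DRF ZT16 replicate 1 (adjusted p = 0.0934) or without DRF ZT12 replicate 4 (adjusted p = 0.105). Ass1 and Gpt2 missed the threshold on the deposited values (adjusted p = 0.218 and 0.137) and with only the compared groups fitted (adjusted p = 0.0543 and 0.0628).

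Among 15 amino acid and solute transporters, 5 were called higher and 2 lower (median 0.15), against 2.59% and 1.96% of all genes tested. Slc25a47, a liver mitochondrial carrier, rose from 72.7, 88.7, 83.8 and 92.8 to 219, 245, 251 and 244 (1.5 ± 0.25 SE, limma adjusted p = 0.000107), with tight and separated groups. Slc7a2, a carrier of arginine and other cationic amino acids, rose from 52.6, 96.8, 81.6 and 64.7 to 213, 174, 174 and 90.2, where replicate 4 at ZT16 fell within the ZT12 range (1.10 ± 0.29 SE, limma adjusted p = 0.0187). Slc43a1 (0.67), Slc38a4 (0.47) and Slc25a15 (0.48) also rose, while Slc1a4 (-0.72) and Slc7a5 (-0.39) fell. The call of Slc7a2 was lost without any 1 of the 8 libraries but DRF ZT12 replicate 2, DRF ZT12 replicate 3 and DRF ZT16 replicate 4 (adjusted p from 0.056 to 0.0948), and that of Slc1a4 without any 1 of the 8 libraries but DRF ZT12 replicate 4 (adjusted p from 0.0552 to 0.115). Those of Slc38a4, Slc25a15 and Slc7a5 were lost without DRF ZT12 replicate 4 (adjusted p = 0.0597), without DRF ZT16 replicate 1 (adjusted p = 0.0593) and without DRF ZT16 replicate 1, DRF ZT16 replicate 3, DRF ZT12 replicate 3 or DRF ZT12 replicate 4 (adjusted p from 0.0533 to 0.0981) in that order. Slc7a2, Slc1a4, Slc38a4 and Slc25a15 missed the threshold on the deposited values (adjusted p = 0.0609, 0.058, 0.131 and 0.218), and Slc7a2 with only the compared groups fitted (adjusted p = 0.0927).

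In the NAD and one-carbon list 4 of 17 were called higher and 0 lower (median 0.086), against 2.59% and 1.96% of all genes. Nnmt, which methylates nicotinamide at the cost of a methyl donor, rose from 101, 87.1, 113 and 83.3 to 318, 229, 199 and 174 (1.22 ± 0.23 SE, limma adjusted p = 0.000627). The betaine and homocysteine enzymes Bhmt (0.81), Ahcy (0.56) and Cbs (0.34) rose with it. Of these, Bhmt and Ahcy had values too high to be judged, so their sizes of change are uncertain. The call of Bhmt was lost without DRF ZT16 replicate 1 (adjusted p = 0.115) or without DRF ZT12 replicate 4 (adjusted p = 0.132), that of Ahcy without DRF ZT16 replicate 1 (adjusted p = 0.0504) and that of Cbs without DRF ZT16 replicate 4, DRF ZT12 replicate 1 or DRF ZT12 replicate 2 (adjusted p from 0.0585 to 0.0737). Bhmt, Ahcy and Cbs missed the threshold on the deposited values (adjusted p = 0.155, 0.172 and 0.224), and Bhmt and Cbs with only the compared groups fitted (adjusted p = 0.0877 and 0.0531).

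Srebf1, the lipogenic regulator, fell. Of 19 lipogenic genes 3 were called lower and 1 higher, with a median of -0.32 and 5 of 19 above 0. The shares over all genes tested were 1.96% lower and 2.59% higher. Srebf1 (chr11:60199089-60222581, minus strand) fell from 215, 219, 238 and 222 to 84.3, 79.97, 126 and 131 (-1.11 ± 0.20 SE, limma adjusted p = 0.000323), with the ZT12 libraries within a narrow range. Elovl6, the elongase of palmitate, lay at 106, 60.4, 75.3 and 71.6 at ZT12 and 30.2, 33.8, 36.8 and 49.5 at ZT16 (-1.03 ± 0.32 SE, limma adjusted p = 0.0474), and Fads2, a fatty acid desaturase, at 722, 595, 521 and 566 at ZT12 and 401, 397, 352 and 413 at ZT16 (-0.61 ± 0.12 SE, limma adjusted p = 0.000522). The enzymes Fasn (-0.86, limma adjusted p = 0.224) and Acly (-0.81, adjusted p = 0.0875) had separated groups and did not pass. The member that rose was Lpin1, a phosphatidate phosphatase that also serves as a coactivator in the fasted liver, with 57.03, 60.4, 47.7 and 64.7 at ZT12 and 277, 81.5, 89.4 and 106 at ZT16. Replicate 1 at ZT16 was far above the rest, and the difference of 1.07 ± 0.30 (SE, limma adjusted p = 0.0275) became 0.67 without that library, with the call lost without DRF ZT16 replicate 1, DRF ZT12 replicate 1, DRF ZT12 replicate 2 or DRF ZT12 replicate 3 (adjusted p from 0.0504 to 0.245). The call of Elovl6 was lost without any 1 of the 8 libraries but DRF ZT16 replicate 4 (adjusted p from 0.0504 to 0.168). Lpin1 and Elovl6 missed the threshold on the deposited values (adjusted p = 0.0936 and 0.0695), and Lpin1 with only the compared groups fitted (adjusted p = 0.166).

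In the list of cholesterol synthesis and LDL uptake 2 of 22 fell and 0 rose (median -0.18). Over all genes tested, 1.96% fell and 2.59% rose. Sc5d, a late enzyme of the pathway, fell from 492, 437, 401 and 415 to 251, 279, 301 and 383 (-0.54 ± 0.15 SE, limma adjusted p = 0.0314). The call of Sc5d was lost without any 1 of the 8 libraries but DRF ZT12 replicate 3 and DRF ZT16 replicate 4 (adjusted p from 0.058 to 0.145). Sc5d missed the threshold on the deposited values (adjusted p = 0.101) and with only the compared groups fitted (adjusted p = 0.0729).

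Calls in the fatty acid oxidation and ketogenesis list were near the share over all genes, of which 4.56% were called in either direction. Of 21 members 1, Angptl4, was called higher and 0 lower, with a median of 0.017. Cpt1a, the gate for entry of fatty acids into mitochondria, lay at 114, 121, 96.4 and 89.9 at ZT12 and 112, 124, 99.01 and 116 at ZT16 (difference 0.11, limma adjusted p = 0.824). Pdk4, a kinase that shuts off pyruvate oxidation, lay at 23.4, 17.4, 22.6 and 9.64 at ZT12 and 10.1, 15.2, 14.9 and 13.5 at ZT16 (difference -0.36, adjusted p = 0.7). Both genes had overlapping groups.

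In the list of apolipoproteins and lipid droplet genes, 1 of 19 rose and 1 fell (median 0.11). Of all genes tested, 4.56% were called in either direction. Pnpla2, the adipose triglyceride lipase, rose by 0.42 (limma adjusted p = 0.0448), and Angptl8 fell from 18.1, 31.8, 16.5 and 37.2 to 5.93, 7.97, 8.74 and 8.14 (-1.56 ± 0.34 SE, limma adjusted p = 0.00361). The call of Pnpla2 was lost without any 1 of the 8 libraries but DRF ZT12 replicate 2 and DRF ZT16 replicate 4 (adjusted p from 0.0757 to 0.171). Among 12 genes of bile acid synthesis and sterol efflux, 2 rose and 1 fell (median 0.13), against 2.59% and 1.96% of all genes. The bile salt export pump Abcb11 (0.38, limma adjusted p = 0.0133) and the sterol hydroxylase Cyp27a1 (0.37, adjusted p = 0.0293) were the members called higher. Abcg5, a subunit of the sterol efflux pump, fell from 135, 165, 111 and 128 to 82.7, 79.3, 87.8 and 104 (-0.60 ± 0.14 SE, limma adjusted p = 0.00702). The call of Abcb11 was lost without DRF ZT16 replicate 4 (adjusted p = 0.0775) or without DRF ZT12 replicate 1 (adjusted p = 0.0593), that of Cyp27a1 without any 1 of the 8 libraries but DRF ZT12 replicate 3, DRF ZT16 replicate 2 and DRF ZT16 replicate 3 (adjusted p from 0.0603 to 0.144) and that of Abcg5 without DRF ZT12 replicate 2 (adjusted p = 0.0522). Abcb11, Cyp27a1 and Pnpla2 missed the threshold on the deposited values (adjusted p = 0.362, 0.342 and 0.057), Abcg5, Abcb11, Cyp27a1 and Pnpla2 with only the compared groups fitted (adjusted p = 0.0543, 0.0664, 0.105 and 0.0507), and Pnpla2 with a pseudocount of 5 (adjusted p = 0.0526).

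**Figure D2:**
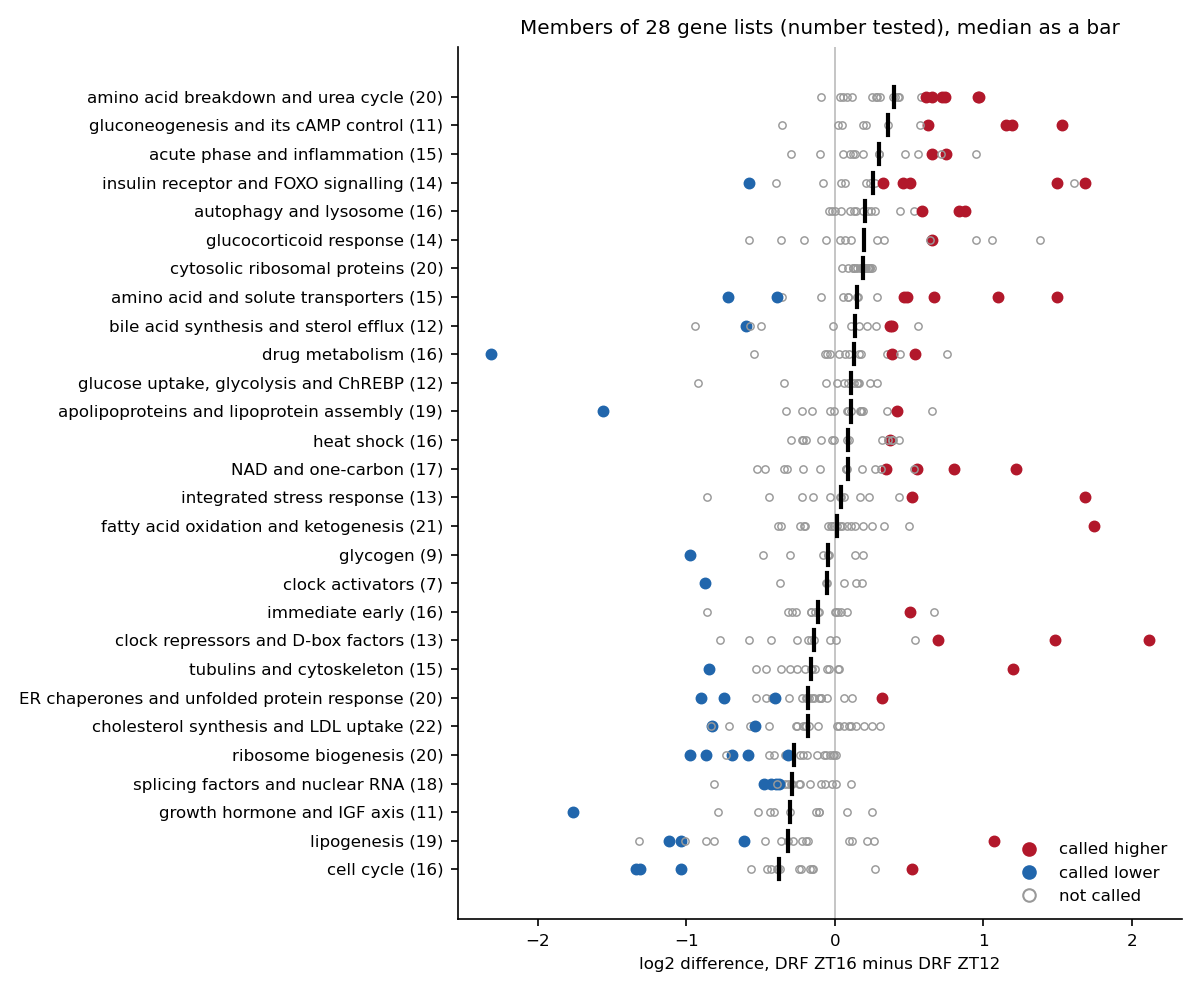
Log2 differences between DRF ZT16 and DRF ZT12 for each tested member of 28 gene lists, ordered by the median, which is drawn as a black bar. Filled points passed the test and open points did not. Amino acid breakdown (0.40) and gluconeogenesis (0.36) have the highest medians, and the cell cycle list (-0.38) and lipogenesis (-0.32) the lowest.

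Of the clock genes, the REV-ERB pair moved most. Among 13 clock repressors and D-box factors 3 rose and 0 fell, against 2.59% and 1.96% of all genes tested, although the list median was -0.14. Nr1d2, the second REV-ERB gene, rose from 40.8, 43.4, 33.9 and 31.9 to 81.3, 102, 124 and 123 (1.48 ± 0.17 SE, limma adjusted p = 8.1e-08), and Cry2, a cryptochrome, from 22.3, 21.3, 23.9 and 21.4 to 37.1, 37.1, 35.4 and 36.2 (0.69 ± 0.10 SE, limma adjusted p = 2.82e-05). In both genes, as in Nr1d1, the groups were separated. Per2 lay at 22.1, 19.8, 18.6 and 25.4 at ZT12 and at 13.6, 11.6, 11.9 and 11.2 at ZT16, also without overlap, but its difference of -0.78 did not pass (limma adjusted p = 0.0775). Of 7 clock activators 1 fell and 0 rose (median -0.052). Arntl, which encodes BMAL1, lay at 55.7, 52.1, 62.1 and 59.4 and 71.2, 56.9, 55.6 and 56.8, with a difference of 0.063 (adjusted p = 0.948).

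Genes of ribosome assembly fell in 5 of 20 members and rose in 0, against 1.96% and 2.59% of all genes tested. Their median was -0.27, with 1 of 20 above 0. Nop58 and Nop56 encode core proteins of the box C/D particles that modify ribosomal RNA. Nop58 fell from 6.73, 5.53, 6.42 and 8.83 to 2.24, 3.22, 3.34 and 3.13 (-0.98 ± 0.15 SE, limma adjusted p = 5.15e-05), and Nop56 from 2.43, 2.51, 2.99 and 3.33 to 1.505, 1.24, 1.395 and 1.27 (-0.69 ± 0.11 SE, limma adjusted p = 3.91e-05). Nolc1, a nucleolar chaperone, fell from 6.08, 6.65, 7.72 and 9.24 to 3.98, 4.19, 2.82 and 3.38 (-0.87 ± 0.18 SE, limma adjusted p = 0.00145). The groups were separated in all 3 genes, and Wdr43 (-0.58) and Wdr12 (-0.32) were the other members called lower. The call of Wdr12 was lost without DRF ZT12 replicate 4 (adjusted p = 0.125). Of the cytosolic ribosomal protein genes limma called 0 of 20, and their median was 0.19. Among them 2 were at an unadjusted p under 0.05, against 15.8% of all genes. Wdr12 missed the threshold on the deposited values (adjusted p = 0.0546) and with only the compared groups fitted (adjusted p = 0.0615).

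Cell cycle genes fell in 3 of 16 members and rose in 1 (median -0.38), against 1.96% and 2.59% of all genes tested. Mcm6 fell from 18.5, 18.9, 7.62 and 22.2 to 4.73, 6.04, 5.05 and 6.804 (-1.34 ± 0.29 SE, limma adjusted p = 0.00345). In Mcm6 as in Mcm5, replicate 3 at ZT12 stood well below the other ZT12 libraries. Ccnd1 fell from 37.03, 58.3, 33.9 and 44.1 to 16.1, 14.9, 18.2 and 16.7 (-1.31 ± 0.28 SE, limma adjusted p = 0.00236). Cdkn1a, the cell cycle inhibitor p21, lay at 4.38, 6.300, 4.44 and 4.93 at ZT12 and at 5.68, 1.300, 1.39 and 0.935 at ZT16, where replicate 1 remained within the ZT12 range (-1.04 ± 0.24 SE, limma adjusted p = 0.00593). The member that rose was the antiproliferative gene Btg1 (0.52, limma adjusted p = 0.0257). The call of Cdkn1a was lost without DRF ZT16 replicate 4 (adjusted p = 0.0517), and that of Btg1 without any 1 of the 8 libraries but DRF ZT12 replicate 3, DRF ZT16 replicate 2 and DRF ZT16 replicate 3 (adjusted p from 0.0603 to 0.0978). Cdkn1a and Btg1 missed the threshold on the deposited values (adjusted p = 0.144 and 0.112), and Mcm6 and Cdkn1a with only the compared groups fitted (adjusted p = 0.0605 and 0.185).

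Among 18 genes of splicing and nuclear RNA, 4, all splicing factors of the SR family, fell and 0 rose (median -0.29). Over all genes tested, 1.96% fell and 2.59% rose. Srsf2 fell from 13.1, 13.8, 11.99 and 12.6 to 9.43, 8.98, 9.63 and 7.85 (-0.48 ± 0.081 SE, limma adjusted p = 0.000139), with 25.3% of its exons opposite another gene. Srsf7 (-0.43), Srsf3 (-0.40) and Srsf6 (-0.37) were the other members called. The call of Srsf3 was lost without DRF ZT16 replicate 4 (adjusted p = 0.0614) or without DRF ZT12 replicate 1 (adjusted p = 0.0955), and that of Srsf6 without DRF ZT16 replicate 3 (adjusted p = 0.0783).

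In the endoplasmic reticulum list 3 of 20 fell and 1 rose (median -0.18), against 1.96% and 2.59% of all genes tested. Dnajb9, a cochaperone, lay at 22.1, 22.2, 34.6 and 53.2 at ZT12 and at 16.2, 15.5, 16.98 and 15.6 at ZT16 (-0.90 ± 0.22 SE, limma adjusted p = 0.00985). The spread was at ZT12, where replicates 3 and 4 were the highest, while the ZT16 libraries were alike. Manf (-0.75), a secreted stress protein, and Xbp1 (-0.40), a transcription factor of the unfolded protein response, also fell, and Atf6 (0.32) rose. The call of Dnajb9 was lost without DRF ZT12 replicate 4 (adjusted p = 0.109), that of Manf without any 1 of the 8 libraries but DRF ZT12 replicate 1 (adjusted p from 0.0594 to 0.281), that of Xbp1 without DRF ZT16 replicate 1, DRF ZT12 replicate 2 or DRF ZT12 replicate 4 (adjusted p from 0.0619 to 0.0734) and that of Atf6 without any 1 of the 8 libraries but DRF ZT12 replicate 3, DRF ZT12 replicate 4 and DRF ZT16 replicate 3 (adjusted p from 0.0815 to 0.182). Manf and Atf6 missed the threshold on the deposited values (adjusted p = 0.0999 and 0.414), and Dnajb9, Manf, Xbp1 and Atf6 with only the compared groups fitted (adjusted p = 0.116, 0.134, 0.0662 and 0.114).

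Autophagy genes rose in 3 of 16 members and fell in 0 (median 0.21), against 2.59% and 1.96% of all genes tested. Atg14, a subunit of the lipid kinase that starts autophagosomes, rose from 7.94, 7.03, 9.34 and 9.74 to 15.9, 16.7, 15.5 and 15.5 (0.84 ± 0.096 SE, limma adjusted p = 1.27e-07). Map1lc3b, the LC3B protein of autophagosome membranes, rose from 6.52, 7.203, 7.65 and 7.17 to 10.3, 10.5, 19.02 and 18.3 (0.88 ± 0.22 SE, limma adjusted p = 0.0121), and the kinase gene Ulk1 from 34.8, 45.4, 30.8 and 32.1 to 54.6, 52.2, 48.2 and 60.5 (0.59 ± 0.13 SE, limma adjusted p = 0.0037). For Map1lc3b, replicates 3 and 4 at ZT16 were well above replicates 1 and 2, and the call was lost without DRF ZT16 replicate 3 (adjusted p = 0.0711) or without DRF ZT16 replicate 4 (adjusted p = 0.0659). Map1lc3b and Ulk1 missed the threshold with only the compared groups fitted (adjusted p = 0.0674 and 0.053).

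Each of the hormone and stress lists held 1 or 2 calls, where 4.56% of all genes tested were called in either direction. In the glucocorticoid list 1 of 14 rose, the Krüppel-like factor gene Klf9, from 18.4, 24.96, 16.9 and 16.4 to 36.01, 27.3, 29.6 and 29.2 (0.66 ± 0.15 SE, limma adjusted p = 0.00428), the gene shown with a FOXO match in its promoter. In the integrated stress response list 2 of 13 rose, Trib3 and Chac1, which degrades glutathione (0.52), and Asns lay below 1 scaled count in every one of the 8 libraries. In the heat shock list 1 of 16 rose, Hsp90ab1 (0.37), and among 16 immediate early genes 1 rose, Klf6 (0.51). In the acute phase list 2 of 15 rose, haptoglobin Hp (0.75) and the interleukin-6 receptor gene Il6ra (0.66). Medians were 0.20, 0.039, 0.089, -0.11 and 0.30 in that order. The call of Chac1 was lost without DRF ZT16 replicate 1, DRF ZT16 replicate 4, DRF ZT12 replicate 1 or DRF ZT12 replicate 2 (adjusted p from 0.0554 to 0.128), that of Hsp90ab1 without any 1 of the 8 libraries but DRF ZT12 replicate 4 and DRF ZT16 replicate 3 (adjusted p from 0.0618 to 0.117), that of Hp without DRF ZT16 replicate 1, DRF ZT16 replicate 2, DRF ZT12 replicate 1 or DRF ZT12 replicate 3 (adjusted p from 0.075 to 0.198) and that of Il6ra without any 1 of the 8 libraries but DRF ZT16 replicate 3 (adjusted p from 0.0525 to 0.191). Chac1, Hsp90ab1, Hp and Il6ra missed the threshold on the deposited values (adjusted p = 0.0911, 0.257, 0.112 and 0.0952), and Chac1, Hsp90ab1, Klf9, Hp and Il6ra with only the compared groups fitted (adjusted p = 0.0955, 0.0637, 0.0528, 0.155 and 0.0684).

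In the drug metabolism list 2 of 16 rose and 1, Alas1, fell (median 0.13), against 2.59% and 1.96% of all genes tested. The members that rose were Por, the electron donor of microsomal cytochromes P450 (0.54), and Nr1i2, the xenobiotic receptor PXR (0.38). In the growth hormone list 1 of 11 fell (median -0.30), the transcription factor gene Onecut1, with 11.8, 20.5, 3.02 and 21.3 at ZT12 and 2.64, 4.36, 2.62 and 1.61 at ZT16 (-1.77 ± 0.52 SE, limma adjusted p = 0.0353), where replicate 3 at ZT12 lay within the ZT16 range and 52.8% of its exons overlap another gene on the same strand. Among 15 tubulin and cytoskeleton genes (median -0.16), Rnd1, a small GTPase gene, rose from 3.52, 3.82, 6.61 and 5.19 to 12.9, 11.3, 11.04 and 12.9 (1.20 ± 0.21 SE, limma adjusted p = 0.000263) and γ-actin, Actg1, fell (-0.85). The call of Nr1i2 was lost without any 1 of the 8 libraries but DRF ZT12 replicate 2 and DRF ZT16 replicate 2 (adjusted p from 0.05 to 0.152), that of Onecut1 without any 1 of the 8 libraries but DRF ZT12 replicate 3 and DRF ZT16 replicate 2 (adjusted p from 0.0725 to 0.158) and that of Actg1 without any 1 of the 8 libraries but DRF ZT12 replicate 4 (adjusted p from 0.0528 to 0.13). Nr1i2 missed the threshold on the deposited values (adjusted p = 0.188), Por, Nr1i2 and Onecut1 with only the compared groups fitted (adjusted p = 0.0728, 0.103 and 0.133), and Onecut1 and Actg1 with a pseudocount of 5 (adjusted p = 0.0538 and 0.0534).

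By class of gene, 545 protein-coding genes were higher and 445 lower of 15107 tested (6.55% called). Of 4618 long noncoding genes, 61 were higher and 22 lower (1.8% called). Of the 1167 loci not matched to the gene annotation, most without an Ensembl identifier, 36 were higher and 8 lower (3.77%). The median level was 6.42 scaled counts for protein-coding and 0.22 for long noncoding genes.

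The DRF interval can be placed within each gene's day. Pck1 stood at 292 ± 127 (SD, n = 4) at DRF ZT8, 4 h before the meal ended, at 262 ± 55.9 at ZT12, at 758 ± 159.6 at ZT16 and at 828 ± 215 at ZT20, so its level stepped up between ZT12 and ZT16. Irs2 stood highest at ZT16 among 3 times, with 23.1 ± 11.2 at ZT12, 61.8 ± 4.37 at ZT16 and 46.7 ± 6.13 at ZT20. Alas1 had its lowest mean of the 4 times at ZT16, with 93.1 ± 47.4 at ZT8, 152 ± 52.8 at ZT12, 30.02 ± 12.1 at ZT16 and 76.3 ± 17.9 at ZT20. Nop58 was likewise lowest at ZT16, at 2.98 ± 0.504, and stood at 4.43 ± 0.448 at ZT8 and 5.199 ± 0.892 at ZT20. These time courses were not tested beyond the pair of times compared here.

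**Figure D3:**
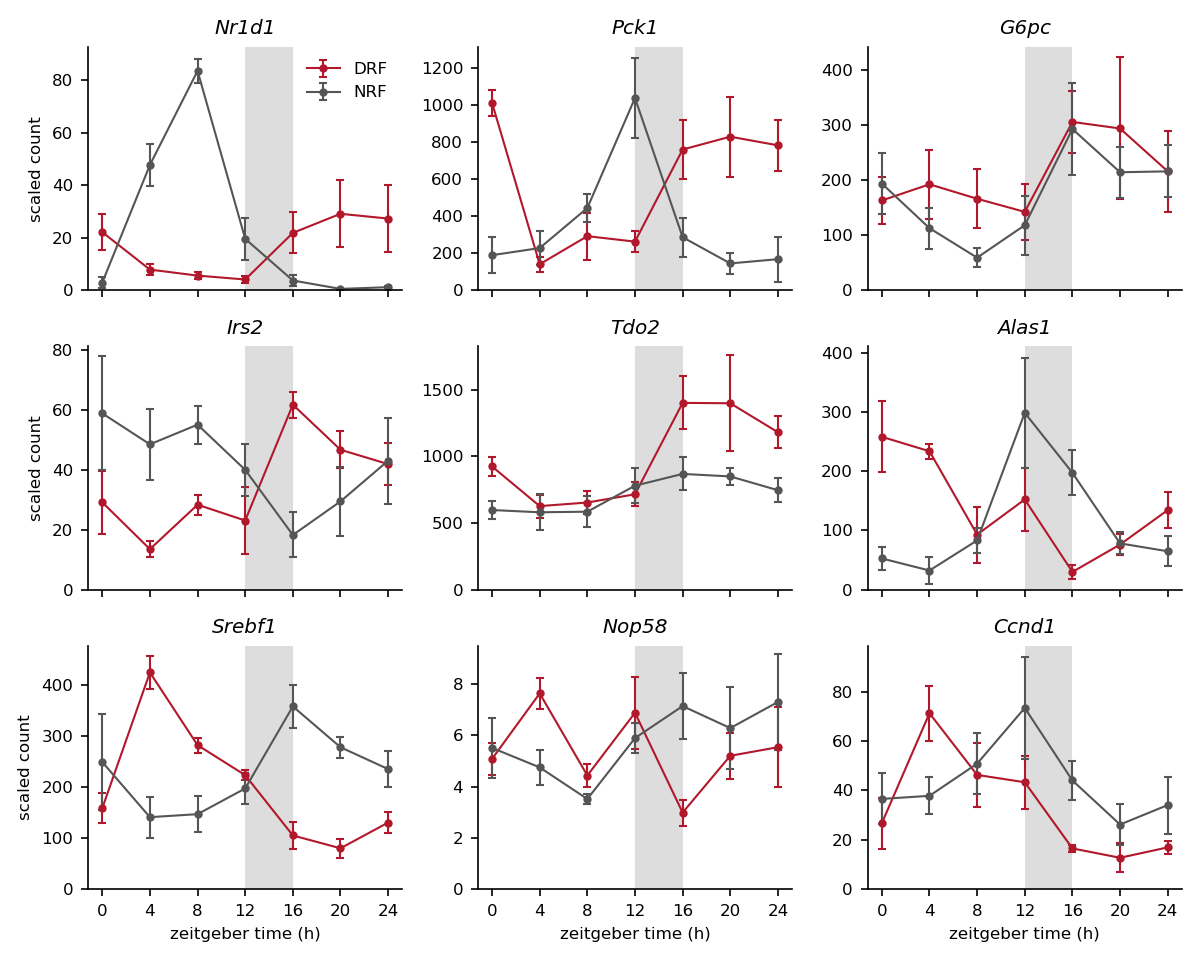
Mean scaled counts with SD (n = 4) of 9 genes at 7 zeitgeber times under DRF (red) and NRF (grey), with the interval from ZT12 to ZT16 shaded. Under DRF, Pck1 went from 262 to 758 and Irs2 from 23.1 to 61.8 within the shaded interval, while Alas1 went from 152 to 30.02.

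Fasting onset in the dark was set against fasting onset in the light, as the difference between the DRF change and the NRF change from ZT0 to ZT4. These intervals differ in light, clock hour and feeding regimen at once, which cannot be told apart here. G6pc, Nnmt, Irs2 and genes of amino acid breakdown had a higher change under DRF. The clock gene Nr1d1 and the sterol pump genes Abcg5 and Abcg8 had a lower one. The change differed in 353 of 25398 genes (limma adjusted p under 0.05): 245 genes had the higher value under DRF, 0.965% of all tested, and 108 the lower, 0.425%. On the deposited values these counts were 45 and 56, so the balance between directions rests on the scale used. Of 36 genes examined for this contrast, 25 missed the threshold on the deposited values and 22 with only the 4 compared groups fitted. The count of 353 was 190 without NRF ZT4 replicate 4, 198 without DRF ZT16 replicate 1, 222 without NRF ZT0 replicate 3 and 227 without DRF ZT12 replicate 2, and it was 1250 with NRF ZT24 in place of ZT0 as the start of the fast. Of the 659 genes that rose under DRF, 60 also rose under NRF (9.1% of the DRF list and 23.2% of the 259 NRF genes, against 1.02% of all genes), and 5 fell. Of the 498 that fell under DRF, 64 also fell under NRF (12.9% of the DRF list and 14.8% of the 431 NRF genes, against 1.7% of all genes), and 3 rose. The difference between the 2 fasting onsets passed in 139 of the 659 and in 50 of the 498 genes, against 1.39% of all genes. It contains the DRF change by which these genes were chosen, so their share is raised by the choice.

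Genes of glucose output and nitrogen handling were among those with a higher change at fasting onset under DRF. G6pc lay at 133, 212, 169.6 and 262 at NRF ZT0 and at 147, 67.5, 97.4 and 140.1 at NRF ZT4, so that log2 differences of 1.15 under DRF and -0.80 under NRF were 1.95 ± 0.48 (SE, limma adjusted p = 0.026) apart. For Nnmt these values were 1.22 under DRF and -0.69 under NRF, a difference of 1.92 ± 0.33 (SE, limma adjusted p = 0.00162). For Acmsd, which steers tryptophan breakdown away from NAD synthesis, they were 0.78 and -0.98 (1.76 ± 0.34 SE, limma adjusted p = 0.00427). The list of amino acid breakdown and urea cycle genes held 4 of 20 members with a higher change under DRF and 0 with a lower one, namely Asl (1.22), Tdo2 (1.03), Gpt2 (1.03) and Arg1 (0.61). The median of the list was 0.40 under DRF and -0.076 under NRF. Over all genes tested, 0.965% had a higher change under DRF and 0.425% a lower one. In the gluconeogenesis list 2 of 11 members passed, G6pc and Got1 (1.37), whereas for Pck1 the difference of 1.21 did not (limma adjusted p = 0.269). The difference of G6pc was lost without DRF ZT16 replicate 4, DRF ZT12 replicate 1, DRF ZT12 replicate 2, NRF ZT4 replicate 2, NRF ZT0 replicate 2 or NRF ZT0 replicate 4 (adjusted p from 0.053 to 0.072), and that of Arg1 without DRF ZT16 replicate 1, DRF ZT12 replicate 2, NRF ZT4 replicate 4 or NRF ZT0 replicate 3 (adjusted p from 0.0554 to 0.0854). G6pc, Got1, Tdo2, Asl, Arg1 and Gpt2 missed the threshold on the deposited values (adjusted p = 0.0927, 0.135, 0.256, 0.0583, 0.565 and 0.167), and G6pc, Acmsd, Got1, Tdo2 and Gpt2 with only the compared groups fitted (adjusted p = 0.0535, 0.055, 0.0534, 0.0539 and 0.0898).

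Irs2 lay at 56.3, 61.8, 35.6 and 81.9 at NRF ZT0 and at 65.5, 38.6, 47.5 and 42.6 at NRF ZT4, without the separation seen under DRF. Its log2 difference was -0.24 there and 1.5 under DRF, 1.74 ± 0.40 (SE, limma adjusted p = 0.0137) apart. For Foxo3 the values were -0.28 under NRF and 0.51 under DRF (0.78 ± 0.14 SE, limma adjusted p = 0.00317). The antisense transcript 2900009J06Rik, of which 18.7% of the exons lie opposite another gene, had the largest positive difference under the naming rule (1.98 ± 0.34 SE, limma adjusted p = 0.00162), and Fam222a followed (1.94 ± 0.36 SE, limma adjusted p = 0.00317). In the lipogenesis list limma called 0 of 19 different, with 4 at an unadjusted p under 0.05 (13.1% of all genes), and the values of Srebf1 were -1.11 under DRF and -0.78 under NRF (difference -0.33 ± 0.28 SE, limma adjusted p = 0.69). Ppard fell under both regimens, by 1.48 under DRF and by 1.63 under NRF (difference 0.15 ± 0.24 SE, limma adjusted p = 0.865). Irs2 and Foxo3 missed the threshold on the deposited values (adjusted p = 0.0763 and 0.0774), and Irs2 with only the compared groups fitted (adjusted p = 0.0864).

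The clock genes differed in both directions, with 2 of 13 clock repressors and D-box factors higher in their change under DRF and 3 lower. Over all genes tested, 0.965% were higher and 0.425% lower. Nr1d1 lay at 1.702, 3.36, 1.204 and 5.596 at NRF ZT0 and at 54.2, 54.6, 42.9 and 39.2 at NRF ZT4, a rise of 3.74, against 2.12 under DRF (difference -1.62 ± 0.44 SE, limma adjusted p = 0.0478). Nr1d2 rose by 2.35 under NRF and 1.48 under DRF (difference -0.87 ± 0.23 SE, limma adjusted p = 0.0464). Dbp, a D-box transcription factor, rose by 1.06 under NRF and had a difference of -0.18 under DRF (-1.24 ± 0.30 SE, limma adjusted p = 0.0204 between them). Cry1, a cryptochrome, fell by 1.61 under NRF and had a difference of -0.43 under DRF (1.18 ± 0.28 SE, limma adjusted p = 0.0163 between them), and Cry2 was the other member with the higher change (0.71). The difference of Nr1d1 was lost without any 1 of the 16 libraries but DRF ZT16 replicate 3, DRF ZT16 replicate 4 and NRF ZT0 replicate 4 (adjusted p from 0.054 to 0.157). That of Nr1d2 was lost without DRF ZT16 replicate 1, DRF ZT16 replicate 2, DRF ZT12 replicate 1, DRF ZT12 replicate 2, NRF ZT4 replicate 2, NRF ZT4 replicate 4, NRF ZT0 replicate 2 or NRF ZT0 replicate 3 (adjusted p from 0.0783 to 0.149), that of Dbp without DRF ZT16 replicate 1, NRF ZT4 replicate 2 or NRF ZT4 replicate 4 (adjusted p from 0.0543 to 0.0838) and that of Cry1 without DRF ZT16 replicate 1 (adjusted p = 0.0652) or without NRF ZT4 replicate 4 (adjusted p = 0.0679). Nr1d1, Cry1 and Cry2 missed the threshold on the deposited values (adjusted p = 0.199, 0.102 and 0.102), Nr1d1, Cry1, Nr1d2 and Dbp with only the compared groups fitted (adjusted p = 0.144, 0.103, 0.179 and 0.0946), Nr1d2 and Dbp with a pseudocount of 5 (adjusted p = 0.0988 and 0.308), and Nr1d1 with a pseudocount of 0.1 (adjusted p = 0.0576).

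Abcg5 fell by 0.60 under DRF and rose by 0.72 under NRF (-1.31 ± 0.20 SE, limma adjusted p = 0.000318 between them), and for its partner subunit Abcg8 the values were -0.50 and 0.81 (-1.31 ± 0.25 SE, limma adjusted p = 0.0045). Inhba and Adgrf1 fell under DRF, while their NRF differences were -0.11 and 0.19. The gaps between regimens were -1.37 ± 0.35 (SE, limma adjusted p = 0.0326) for Inhba, -1.46 ± 0.39 (SE, limma adjusted p = 0.0437) for Adgrf1 and -1.54 ± 0.37 (SE, limma adjusted p = 0.0204) for Serpina7, the thyroxine-binding globulin. The rule for named genes also returned the mitochondrially encoded gene mt-Co3 (-5.33), which was listed at between 0.0313 and 0.121 scaled counts in the 8 DRF libraries, at 0.278, 0.0596, 0.0784 and 0.1300 at NRF ZT0 and at 140.4, 199, 0.133 and 139 at NRF ZT4. Another gene of that genome, mt-Co1, was listed at 0.509 in DRF ZT16 replicate 2 and at no less than 4131 in the other 7 DRF libraries, so no change is read from mt-Co3. The difference of Inhba was lost without DRF ZT16 replicate 1, DRF ZT12 replicate 2, DRF ZT12 replicate 4, NRF ZT4 replicate 3, NRF ZT4 replicate 4, NRF ZT0 replicate 2 or NRF ZT0 replicate 4 (adjusted p from 0.0612 to 0.107), that of Adgrf1 without any 1 of the 16 libraries but DRF ZT12 replicate 1, DRF ZT16 replicate 4, NRF ZT0 replicate 1 and NRF ZT4 replicate 1 (adjusted p from 0.0544 to 0.136) and that of Serpina7 without DRF ZT16 replicate 1, DRF ZT12 replicate 2, NRF ZT4 replicate 4 or NRF ZT0 replicate 3 (adjusted p from 0.0635 to 0.0744). Serpina7, Adgrf1 and Inhba missed the threshold on the deposited values (adjusted p = 0.0809, 0.0627 and 0.0731) and with only the compared groups fitted (adjusted p = 0.0853, 0.0963 and 0.109), and Serpina7 and Inhba with NRF ZT24 as the start of fasting (adjusted p = 0.093 and 0.147).

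Over the same clock hours, food was withdrawn under DRF and given under NRF, and the test compares the 2 changes. At ZT12 a meal had just ended under DRF and a fast under NRF, after 7 days on opposite regimens. The paper also reports that inverted feeding fully reversed the phase of liver clock genes. Food, regimen, state at ZT12 and clock phase differ at once and cannot be told apart here. Rgs16, Nr1d1, Pck1 and Irs2 rose in the DRF livers and fell in the NRF livers, whereas Srebf1 and Ppard fell in the DRF livers and rose in the NRF livers. The change differed in 3355 of 25398 genes, with 1917 higher under DRF (7.55%) and 1438 lower (5.66%). With median-of-ratios scaling the split was 1602 and 1847, with a correction for gene length 1542 and 1841, and on the deposited values 1225 and 1597, so the balance of directions is not stable. Of the 659 genes that rose under DRF, 229 fell under NRF (34.7%, against 9.89% of all genes) and 52 rose. Of the 498 that fell, 125 rose under NRF (25.1%, against 6.63% of all genes) and 48 fell. The difference passed in 447 of the 659 and 314 of the 498, against 13.2% of all genes. These genes were chosen by the DRF change, which the difference contains, so their share is raised by the choice.

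Rgs16 rose by 3.11 under DRF and fell by 3.37 under NRF, from 12.8, 27.4, 28.03 and 24.2 to 1.299, 1.95, 1.12 and 0.728 (difference 6.48 ± 0.68 SE, limma adjusted p = 2.28e-09). Nr1d1 rose by 2.12 and fell by 2.13 (difference 4.25 ± 0.44 SE, limma adjusted p = 2.02e-09). Depp1 (3.69, limma adjusted p = 0.000106) and Pck1 (3.42, adjusted p = 3.09e-06) also rose under DRF and fell under NRF, with these gaps. Pck1 lay at 740.3, 1245, 1121 and 1036 at NRF ZT12 and at 214, 204, 431 and 296 at NRF ZT16, the reverse of its DRF course. Mt2, metallothionein 2, lay at 5.21, 4.33, 5.07 and 5.97 at DRF ZT12 and 25.8, 25.1, 10.6 and 6.99 at DRF ZT16, with replicates 3 and 4 closest to the ZT12 range. It fell under NRF by 2.34 (difference 3.72 ± 0.71 SE, limma adjusted p = 0.000172), and its gene has 73.5% of its exons opposite another gene.

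Arntl had a difference of 0.063 under DRF and rose by 3.83 under NRF (difference -3.76 ± 0.27 SE, limma adjusted p = 8.06e-14). The change was also lower under DRF in Tubb2a, a β-tubulin with near-identical relatives whose reads may be shared (-3.28), Tsku (-3.21) and the phosphate carrier gene Slc34a2 (-2.90), with limma adjusted p-values of 4.78e-13, 0.000227 and 1.03e-07. G6pc, unlike Pck1, rose under both regimens, by 1.15 under DRF and by 1.38 under NRF (difference -0.23 ± 0.48 SE, limma adjusted p = 0.824). In the lists, limma called the change lower under DRF in 16 of 20 endoplasmic reticulum genes, 10 of 16 heat shock genes and 10 of 15 tubulin and cytoskeleton genes, and higher in 1, 1 and 2 of them. It was higher in 8 of 14 insulin and FOXO genes and 8 of 13 clock repressors, and lower in 2 of each list. Over all genes 5.66% were lower and 7.55% higher. Under NRF alone, 16, 12 and 10 of the first 3 lists rose and 1 of each fell (medians 0.60, 1.3 and 1.01). Under DRF alone, 3, 0 and 1 fell and 1 of each list rose (medians -0.18, 0.089 and -0.16). Of the insulin and clock repressor lists, 8 of each fell under NRF and 1 and 2 rose. Under DRF 5 and 3 of these rose and 1 and 0 fell.

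**Figure D4:**
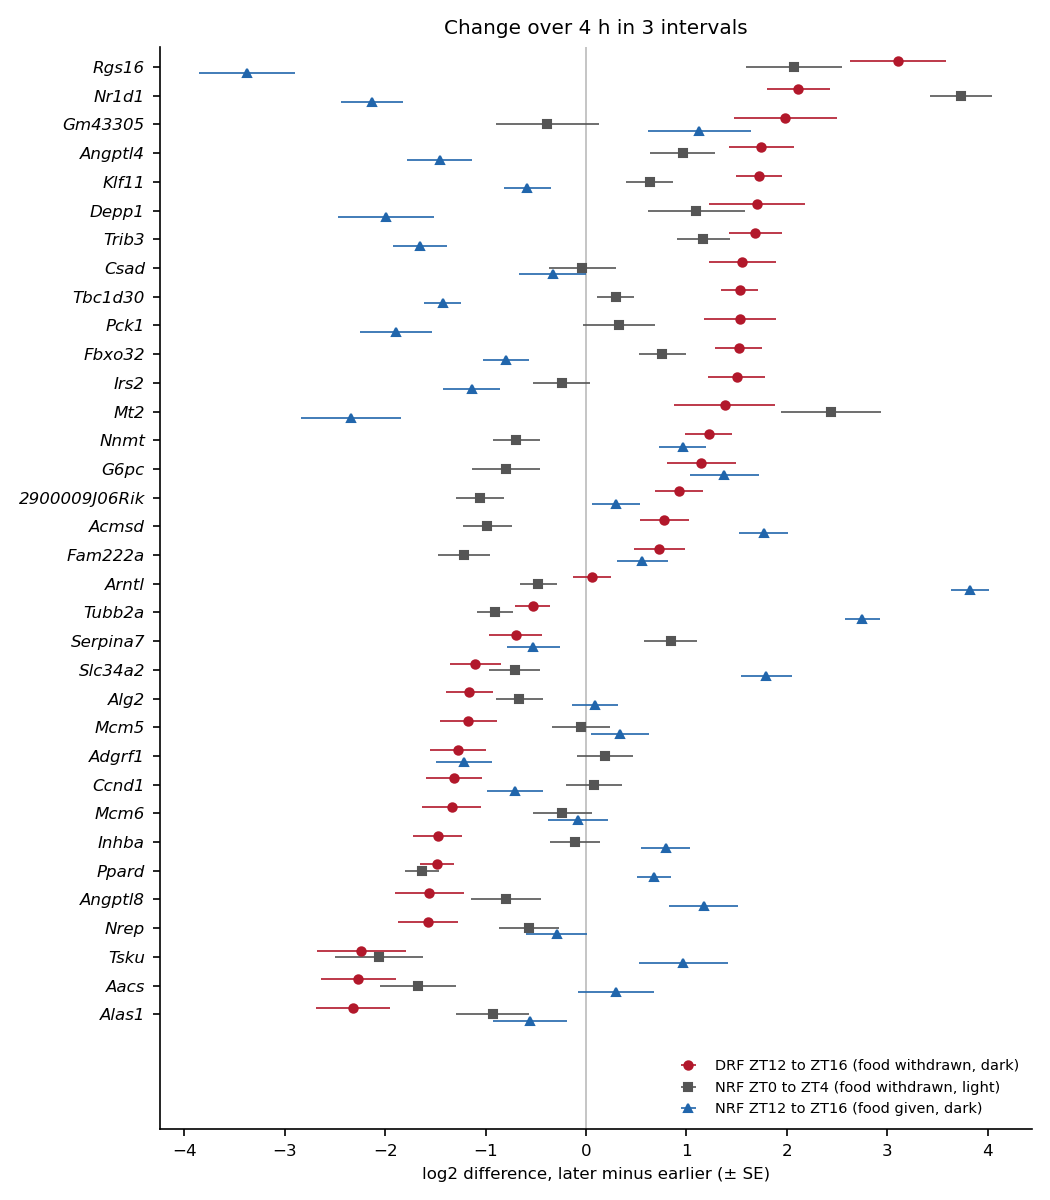
Log2 changes over 4 h (later minus earlier, with SE) for genes named by rule in the 3 comparisons, without mt-Co3, under DRF from ZT12 to ZT16 (red circles), NRF from ZT0 to ZT4 (grey squares) and NRF from ZT12 to ZT16 (blue triangles). G6pc lies at 1.15, -0.80 and 1.38 in these intervals and Pck1 at 1.53, 0.33 and -1.89.

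Circular RNAs, counted by reads across back-splice junctions, were few: the 8 libraries held between 6357 and 14869 junction reads. Of 2352 circular RNAs listed, the test took the 1131 found in 28 or more of the 56 libraries. Limma called 0 of them different between DRF ZT12 and DRF ZT16, with 96 at an unadjusted p under 0.05 and a smallest adjusted p of 0.105. A count of 3 was reached without DRF ZT12 replicate 2, and of 1 without DRF ZT12 replicate 3 or 4. No other tool was run.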

How the data were processed

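Liver RNA depleted of ribosomal RNA was sequenced as strand-specific paired reads, although the molecule label reads polyA. Per the labels, CASAVA 1.8, featureCounts 1.5.0-p3 and the builds mm10 and GRCm38.p6 were used. The aligner and the use of strand in counting were not given in the sources used here. The gene values deposited by the authors are named TPM but are treated as a score, because value times exon length (GENCODE vM21) followed a logarithm of scaled whole counts. Scaled counts were rebuilt by inverting that curve, and whole counts came back for 99.01% of left-out values of up to 10 counts within 0.05 of a whole count, where 10% were expected by chance. For 100 genes with high values this could not be judged, and 17 of 25415 genes were left out. The circular RNA values deposited by the authors are log2 of 1 plus scaled junction reads. The transcript table was not used.

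Differences of log2(scaled count + 1) were fitted with limma 3.58.1 (R 4.3.3) over 14 groups of 4 libraries with a shared, trended spread and Benjamini-Hochberg adjustment, after tests on simulated data. The 3 gene comparisons were DRF ZT16 against ZT12 and the difference of that change from each of 2 NRF intervals. A minimum mean deposited value of 0.1 removed 0 genes. Alternatives covered pseudocount, filter, scaling, length correction, deposited values, groups in the fit, replicate block, trend and libraries left out. Genes were named by rule: adjusted p under 0.05, at least 5 scaled counts in the higher group, and groups without overlap in the first comparison, then the 12 largest differences in each direction, the 5 largest for each of the other 2 comparisons, and up to 4 called members of each list. Some genes that met the rule are not reported here. Other genes were named after their values were seen. The members and gene lists were chosen with earlier results of these data known. Promoters came from RefSeq and were searched in Python 3.11.15.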

Additional observations from a re-analysis of the deposited data

Results flagged for a closer look

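Of 228 groups of 4 libraries examined for the named genes, 7 held a library far from the other 3. No chance rate is set beside this count, because the genes were chosen by their calls and share the same libraries. In 6 of the 7 that library was DRF ZT16 replicate 1, at 3.81 scaled counts for Ppard, 2.31 for Inhba, 71.2 for Arntl, 277 for Lpin1, 5.68 for Cdkn1a and 4733 for Bhmt. In the remaining 1, DRF ZT12 replicate 2 stood at 1.11 for 2900009J06Rik.

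The change at fasting onset differed between DRF and NRF by a direct limma test in genes of the naming rule: on the log2 scale the DRF change minus the NRF change was 1.98 for 2900009J06Rik, 1.95 for G6pc, 1.94 for Fam222a, 1.92 for Nnmt, 1.76 for Acmsd, 1.74 for Irs2 and 1.24 for Tbc1d30. It was -1.37 for Inhba, -1.46 for Adgrf1, -1.54 for Serpina7, -1.62 for Nr1d1 and -5.33 for mt-Co3, whose values jump between libraries of 1 group.

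Among members of the gene lists the same contrast was positive for the heat shock genes Hspb1 (1.24), Hspa4l (0.74) and Hsp90ab1 (0.72), the small GTPase gene Rnd1 (1.41), Got1 (1.37), Asl (1.22), Tdo2 (1.03), Gpt2 (1.03) and Arg1 (0.61), Cry1 (1.18), Cry2 (0.71) and the clock-linked repressor Nfil3 (1.04). It was positive also for Slc25a15 (0.82), Ahcy (0.81), Foxo3 (0.78), the phosphofructokinase genes Pfkfb1 (0.64) and Pfkl (0.42), Por (0.55) and Atg14 (0.52). It was negative for Abcg5 (-1.31) and Abcg8 (-1.31), Dbp (-1.24), Nr1d2 (-0.87), Nop58 (-0.81) and Wdr43 (-0.58). Of these, Ahcy was lost without NRF ZT4 replicate 4 (adjusted p = 0.0507), Pfkfb1 without any 1 of the 16 libraries but DRF ZT12 replicate 3, DRF ZT12 replicate 4, DRF ZT16 replicate 3, DRF ZT16 replicate 4, NRF ZT0 replicate 1, NRF ZT0 replicate 4 and NRF ZT4 replicate 1 (adjusted p from 0.0521 to 0.122) and Por without any 1 of the 16 libraries but DRF ZT12 replicate 2, DRF ZT16 replicate 3, DRF ZT16 replicate 4, NRF ZT0 replicate 4 and NRF ZT4 replicate 3 (adjusted p from 0.0536 to 0.174). Atg14 was lost without any 1 of the 16 libraries but DRF ZT12 replicate 3, DRF ZT12 replicate 4, DRF ZT16 replicate 3, NRF ZT0 replicate 3, NRF ZT4 replicate 1, NRF ZT4 replicate 2 and NRF ZT4 replicate 3 (adjusted p from 0.0504 to 0.114) and Nop58 without any 1 of the 16 libraries but DRF ZT12 replicate 2, DRF ZT16 replicate 3, NRF ZT0 replicate 3 and NRF ZT4 replicate 2 (adjusted p from 0.0502 to 0.143). On the deposited values the calls of Cry1, Cry2, Nfil3, Got1, Pfkl, Pfkfb1, Foxo3, Tdo2, Asl, Arg1, Gpt2, Hsp90ab1, Hspa4l, Atg14, Por, Rnd1, Slc25a15 and Ahcy were lost, with only the compared groups fitted those of Cry1, Nr1d2, Dbp, Nfil3, Got1, Pfkfb1, Tdo2, Gpt2, Hspa4l, Nop58, Wdr43, Atg14, Por and Rnd1, with median-of-ratios scaling those of Pfkfb1, Atg14 and Por, and with NRF ZT24 as the start of fasting those of Pfkl, Pfkfb1, Nop58, Wdr43 and Por.

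Over the same clock hours the DRF change exceeded the NRF change by 6.48 for Rgs16, 4.25 for Nr1d1, 3.72 for Mt2, 3.69 for Depp1, 3.42 for Pck1, 3.34 for Trib3, 3.2 for Angptl4, 2.96 for Tbc1d30, 2.64 for Irs2, 2.32 for Fbxo32, 2.3 for Klf11 and 1.89 for Csad (log2, limma). It was below the NRF change for Arntl (-3.76), Tubb2a (-3.28), Tsku (-3.2), Slc34a2 (-2.9), Angptl8 (-2.73), Aacs (-2.57), Inhba (-2.27), Ppard (-2.16), Alas1 (-1.76), Mcm5 (-1.51), Nrep (-1.28), Mcm6 (-1.26) and Alg2 (-1.25).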

How the results depend on the processing

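Of the 92 genes examined for the DRF change, 1423 of 1655 values under the alternatives kept direction and call, 232 kept direction and lost the call, and 0 reversed, and 44 genes kept the call throughout. For the contrast with NRF fasting onset these numbers were 795, 177 and 0 of 972 values for 36 genes, of which 6 kept the call throughout, and for the contrast over the same clock hours 260, 0 and 0 of 260 values for 10 genes. The alternative without the filter repeats the main fit, because the filter removed 0 genes. Its values are counted as kept in all 3 contrasts and show nothing about stability. The count of genes called for the DRF change, 1157, was 695 on the deposited values (325 higher, 370 lower), which called 606 of the 1157 again, and from 714 to 942 with 1 library left out. The count of 353 for the contrast of fasting onsets was 101 on the deposited values (45 higher, 56 lower), 191 in the groups compared alone, 1250 with NRF ZT24 as the start of fasting, and from 190 to 391 with 1 library left out. The count of 3355 over the same clock hours was 2131 in the groups compared alone. Its share of higher changes was 57.1%, and 46.4% with median-of-ratios scaling, 45.6% with the length correction and 43.4% on the deposited values. For circular RNAs the count of 0 became at most 3 with 1 library left out. The causes of these shifts were not tested. Replicate numbers did not pair the libraries (correlations of deviations from -0.00707 to 0.0631), and with the replicate block the counts were 1123, 377, 3404 and, for circular RNAs, 0. A length index per library was 0.127 ± 0.033 at DRF ZT12 and 0.0446 ± 0.0782 at DRF ZT16, with overlapping ranges and no difference past the threshold (SD, n = 4, exact permutation p = 0.114, two-sided, the smallest possible being 0.0286).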

Other observations

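The genes in the following paragraphs were chosen after their values were seen, so their counts are descriptions. The 6 subunits of the replicative helicase had log2 differences from DRF ZT12 to DRF ZT16 of -0.56 for Mcm2, -0.60 for Mcm3, -0.55 for Mcm4, -1.17 for Mcm5, -1.34 for Mcm6 and -0.17 for Mcm7, of which Mcm5 and Mcm6 passed. Mcm5 lay at 6.58, 7.08, 2.47 and 8.26 at ZT12 and at 1.84, 2.001, 1.88 and 2.12 at ZT16, with replicate 3 the lowest at ZT12. Lig1, the replicative DNA ligase, fell by 0.96 (limma adjusted p = 0.0014).

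Regulators of the nutrient-sensing kinase mTORC1 were among the genes called higher. Flcn, folliculin, lay at 11.1, 7.596, 10.7 and 10.8 at ZT12 and at 23.3, 23.1, 28.3 and 28.4 at ZT16 (1.28 ± 0.13 SE, limma adjusted p = 1.53e-08). Its partners Fnip1 (0.61, limma adjusted p = 0.000115) and Fnip2 (0.62, adjusted p = 0.00391) and the repressor of the pathway Tsc1 (0.52, adjusted p = 4.85e-05) also rose. Tsc1 lay at 26.7, 29.2, 24.5 and 23.97 at ZT12 and at 36.3, 38.7, 37.00 and 39.4 at ZT16, without overlap.

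Further genes of amino acid breakdown outside the list rose, among them Cth, cystathionine lyase (0.90 ± 0.20 SE, limma adjusted p = 0.0032), and Aass, the first enzyme of lysine breakdown (0.56 ± 0.12 SE, limma adjusted p = 0.00159). Among genes that fell, Ctps, CTP synthase, lay at 8.51, 8.96, 11.03 and 13.9 at ZT12 and at 5.77, 5.22, 5.36 and 4.68 at ZT16 (-0.87 ± 0.17 SE, limma adjusted p = 0.00127), and Rrn3, an initiation factor of RNA polymerase I, at 38.3, 43.1, 42.9 and 53.1 at ZT12 and 30.8, 29.9, 29.7 and 29.7 at ZT16 (-0.54 ± 0.11 SE, limma adjusted p = 0.00167).

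No circular RNA passed the test. The one with the smallest p-value, novel_circ_0006827, was listed at 0 in all 4 DRF ZT12 libraries and at 7.89, 7.016, 8.396 and 7.623 on the log2 scale in the DRF ZT16 libraries, and its identifier carries no host gene. Values of this size stand for only a few junction reads per library, so the step from 0 gives no size of change.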
